A study of Mus musculus with 6 samples.

Results

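The set described here holds 9 genes for proteins secreted by the lining and glands of the nose. They were chosen by gene symbol, out of 24346 symbols, and all 9 were found. Of these, 5 are BPI-fold genes (Bpifa1, Bpifb1, Bpifb5, Bpifb9a and Bpifb9b), 1 is a mucin gene (Muc5b), 2 are odorant-binding protein genes (Obp1a and Obp2a) and 1 is a secretoglobin gene (Scgb1c1). The rule used gene symbols alone, but the set was chosen with earlier results of these data known. Messenger RNA came from the nasomaxillary complex of mouse embryos at stage E17.5. The 3 control libraries were labelled Pth1r f/f (Flox control) and the 3 mutant libraries Wnt1-Cre:Pth1r f/f (Mutant), with no treatment in either group, so both groups carried floxed Pth1r, the gene of the parathyroid hormone receptor, and the mutants alone carried Cre. An effect of the transgene itself and loss of Pth1r cannot be told apart in this design. The labels do not name the Wnt1-Cre line, the floxed exons, the strain or the litters, and do not say whether each library is a separate embryo, so the spread between replicates may be partly technical.

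BPI-fold proteins are secreted relatives of bactericidal/permeability-increasing protein and bind lipids. Those of the nose and airway coat the mucosa, where they act in host defence, and in rodents some of them are products of nasal glands. Gel-forming mucins such as the product of Muc5b build the mucus layer, odorant-binding proteins are lipocalins that carry small hydrophobic molecules, and secretoglobins are small secreted proteins of mucosal surfaces. The epithelium that makes these products derives mainly from surface ectoderm, while Wnt1-Cre acts in the neural crest, which supplies the mesenchyme and skeleton around it.

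Bpifb9a and Bpifb9b are near-identical copies, so how far reads can be told apart between them bears on every value of the pair. Their annotated coding sequences are each 1773 bases long and differed at 13 positions, an identity of 99.27%. The longest stretch without a difference was 465 bases, and 69.5% of all 50-base words of the Bpifb9a coding sequence occurred unchanged in that of Bpifb9b. The 150-base coding stretch with the most differences, bases 63 to 212 of each coding sequence, is shown from the GENCODE transcripts, with the 4 bases that differ in capitals.
Bpifb9a: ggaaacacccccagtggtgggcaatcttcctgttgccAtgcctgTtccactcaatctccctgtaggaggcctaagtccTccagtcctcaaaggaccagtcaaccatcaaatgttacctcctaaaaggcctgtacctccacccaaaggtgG
Bpifb9b: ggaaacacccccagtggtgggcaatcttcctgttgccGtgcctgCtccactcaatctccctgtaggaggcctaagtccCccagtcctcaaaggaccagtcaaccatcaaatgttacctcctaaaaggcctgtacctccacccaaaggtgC
Only fragments that cover such positions separate the copies, and how the authors' counting shared out the others is not stated in the sources used here. The level of each copy alone is therefore uncertain, and the sum of both is given beside it.

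The start regions of the set fell into a group with a TATAAA motif and a group without one. RefSeq start regions (GRCm38.p6) were found for 8 of the 9 genes. TATAAA, searched on both strands in the 250 bases before the RefSeq start, was found for 5 of the 8 (Bpifa1, Bpifb9a, Bpifb9b, Obp1a and Obp2a), against 12.4% of 32851 start regions of all genes, which include several for some genes. In those 5 the motif began 29 or 30 bases before the GENCODE start of the gene, where a TATA box usually stands. Bpifb1, Bpifb5 and Scgb1c1 held no TATAAA in this window. Bpifb5 had 60.0% G and C and 2 copies of GGGCGG, and Scgb1c1 held 1 copy. Of all start regions, 32.7% held GGGCGG at least once. TGTTTAC, a forkhead core, was found in none of the 8 and in 3.17% of all start regions. The 150 bases before the GENCODE start are shown for the gene with the highest level (Bpifa1), the copies, the GC-rich Bpifb5 and Obp1a, which was listed at 0, with TATAAA and GGGCGG or its complement CCGCCC in capitals. The regions are chr2:154142730-154142879, chr2:154257704-154257853, chr2:154307077-154307226 and chr2:154223592-154223741 on the plus strand and chrX:78091375-78091524 on the minus strand.
Bpifa1: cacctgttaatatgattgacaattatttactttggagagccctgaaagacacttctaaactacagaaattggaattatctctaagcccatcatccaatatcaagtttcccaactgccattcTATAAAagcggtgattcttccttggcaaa
Bpifb9a: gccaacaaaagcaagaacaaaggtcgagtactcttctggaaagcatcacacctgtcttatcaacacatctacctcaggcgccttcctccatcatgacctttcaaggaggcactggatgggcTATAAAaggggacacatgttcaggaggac
Bpifb9b: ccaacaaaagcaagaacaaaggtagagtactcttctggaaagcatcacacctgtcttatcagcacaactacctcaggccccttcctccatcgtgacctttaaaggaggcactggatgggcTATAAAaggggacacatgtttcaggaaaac
Bpifb5: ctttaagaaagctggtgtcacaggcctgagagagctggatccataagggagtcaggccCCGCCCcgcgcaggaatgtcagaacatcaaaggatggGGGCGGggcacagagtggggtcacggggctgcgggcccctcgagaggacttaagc
Obp1a: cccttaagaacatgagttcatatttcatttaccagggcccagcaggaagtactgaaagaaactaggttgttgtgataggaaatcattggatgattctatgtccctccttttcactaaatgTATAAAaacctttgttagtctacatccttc
The start regions of Bpifb9a and Bpifb9b aligned over 149 of these bases with 8 mismatches, so they were less alike than the coding sequences.

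Expression within the set spanned from among the highest levels of the tissue to none recorded. FPKM counts sequenced fragments relative to transcript length and to library size, and so is a per-length unit, so levels of different genes can be set side by side. Bpifa1, which encodes the abundant BPI-fold protein of the upper airway surface, had a mean level of 1159 FPKM over the 6 libraries and ranked 57 of 24346 symbols. It was followed by Bpifb9b at 197.7 FPKM, Bpifb5 at 91.3 FPKM, Scgb1c1 at 60.6 FPKM, Bpifb9a at 28.5 FPKM, Muc5b at 6.69 FPKM and Bpifb1 at 3.93 FPKM. This order was the same in all 6 libraries. The ranges of Bpifb5 and Scgb1c1 over the libraries touched (lowest Bpifb5 71.3 FPKM, highest Scgb1c1 73.0 FPKM), and no other neighbours in the order overlapped. Bpifa1 alone made up between 68.0% and 79.3% of the summed FPKM of the 9 genes.

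Obp1a and Obp2a were listed at 0 FPKM in all 6 libraries, as were 3460 symbols in all. Each has a single annotated transcript, of 757 and 744 bases. The depth of the libraries is not given in the files, but the low values show what was measurable: of 194 genes with 1 transcript of 700 to 800 bases, 80 to 88 were above 0 in a library. The 5th percentile of these non-zero values lay between 0.112 and 0.139 FPKM in 5 libraries and at 0.187 FPKM in mutant replicate 3, and the lowest single values were 0.0352 to 0.121 FPKM in 5 libraries and 2.81e-06 FPKM in mutant replicate 2. None of 15 widely expressed genes such as Actb was at 0, but a listed 0 can also be a failed estimate. No comparison between the groups is possible for these 2 genes, and both stayed out of the test. The related Obp2b, Lcn4 and Mup4 were likewise listed at 0 throughout.

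The comparison asked whether the secretory genes of the nose differ between embryos with Wnt1-Cre and floxed Pth1r and embryos with floxed Pth1r alone. None of the 7 genes averaging 1 FPKM or more passed the test. By limma with adjustment over all 14766 tested genes, 0 of 7 had an adjusted p under 0.05, where 0.264% of all tested genes did, and 0 of 7 had an unadjusted p under 0.05, where 11.3% did. In 0 of 7 did the mutant values lie wholly on one side of the control values, where 17% of all tested genes were separated in that way. The fitted log2 changes (mutant minus control, on log2(FPKM + 1)) were positive for 6 and negative for 1, with a median of 0.21, while 49.2% of all tested genes had positive changes. With 3 libraries against 3 these data leave room for changes in either direction, and the intervals below give the sizes they allow.

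**Figure D1:**
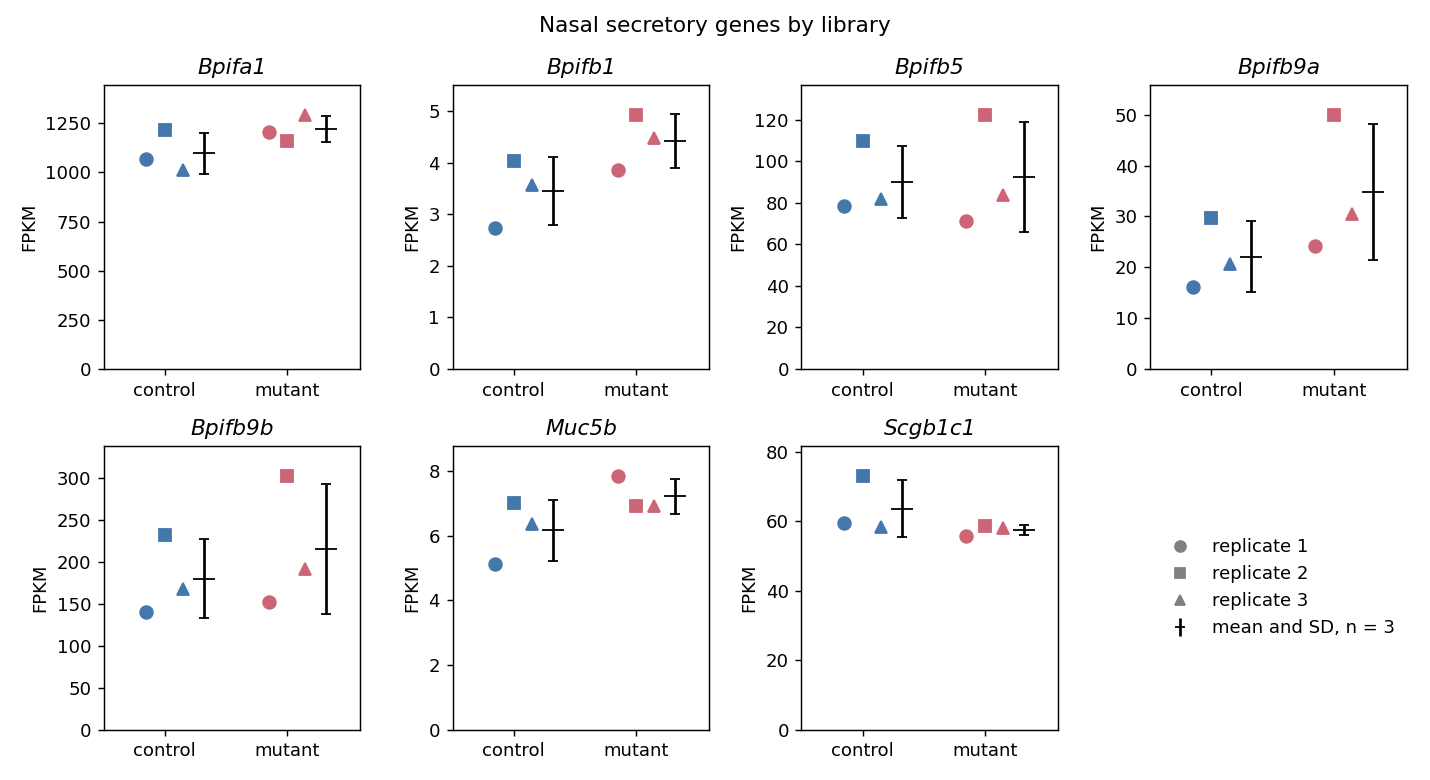
FPKM (vertical axes, from 0) of the 7 expressed genes in the 3 control and 3 mutant libraries, with the mean and SD of each group beside the points. Control and mutant libraries overlap in every panel, and the square of mutant replicate 2 is the highest point for Bpifb1, Bpifb5, Bpifb9a and Bpifb9b.

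Among the BPI-fold genes, Bpifa1 (chromosome 2, 154142880 to 154149219, plus strand, GRCm38) stood at 1067, 1214 and 1013 FPKM in control, replicates in numerical order, against 1208, 1160 and 1290 FPKM in mutant. The groups overlapped, because control replicate 2 lay above mutant replicates 1 and 2. The means were 1098 ± 104 FPKM and 1219 ± 65.9 FPKM (SD, n = 3 each), the log2 change was 0.15 ± 0.083 (SE), and the limma adjusted p was 0.538. Its 95% interval ran from -0.041 to 0.35, or 0.972 to 1.27 times the control level. Bpifb1 (chromosome 2, 154190818 to 154220369, plus strand), a long-form BPI-fold gene of airway secretory cells, was low, at 2.74, 4.03 and 3.57 FPKM in control and 3.86, 4.92 and 4.48 FPKM in mutant. Only control replicate 2 and mutant replicate 1 overlapped. The log2 change was 0.29 ± 0.13 (SE), with a 95% interval of -0.017 to 0.60 and a limma adjusted p of 0.462.

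Bpifb5 (chromosome 2, 154223742 to 154240902, plus strand), another long-form BPI-fold gene, measured 78.6, 110.0 and 81.7 FPKM in control and 71.3, 122 and 83.9 FPKM in mutant. The second library of each group stood above the other libraries of its group, and the mutant range enclosed the control range. The log2 change was 0.016 ± 0.21 (SE), with a 95% interval of -0.47 to 0.50 and a limma adjusted p of 0.986. Bpifb9b (chromosome 2, 154307227 to 154320646, plus strand) measured 139.9, 232 and 168 FPKM in control and 153, 302 and 191 FPKM in mutant, again highest in the second library of each group. Its log2 change was 0.23 ± 0.27 (SE), with a 95% interval of -0.40 to 0.86 and a limma adjusted p of 0.807. Bpifb9a (chromosome 2, 154257854 to 154271245, plus strand) measured 16.0, 29.7 and 20.6 FPKM in control and 24.2, 49.9 and 30.4 FPKM in mutant. The overlap rested on control replicate 2, which lay above mutant replicate 1. Its log2 change, 0.61 ± 0.29 (SE), was the greatest of the 7, but so was its spread: the 95% interval ran from -0.074 to 1.30 and the limma adjusted p was 0.486. Without mutant replicate 2 the change of Bpifb9a was 0.33, that of Bpifb9b -0.044 and that of Bpifb5 -0.20, so the positive sign of the last 2 rests on that library.

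Muc5b (chromosome 7, 141839070 to 141873084, plus strand), the gel-forming mucin gene, measured 5.13, 6.99 and 6.36 FPKM in control and 7.84, 6.91 and 6.91 FPKM in mutant. Control replicate 2 lay above mutant replicates 2 and 3, so the groups overlapped. Its log2 change was 0.21 ± 0.11 (SE), with a 95% interval of -0.050 to 0.46 and a limma adjusted p of 0.533. Scgb1c1 (chromosome 7, 140845547 to 140846769, plus strand), the secretoglobin gene, was the only one with a negative change. It measured 59.6, 73.0 and 58.4 FPKM in control and 55.8, 58.6 and 58.2 FPKM in mutant, and the mutant libraries lay closer together than the controls. Its log2 change was -0.14 ± 0.086 (SE), with a 95% interval of -0.34 to 0.066 and a limma adjusted p of 0.604.

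Variation within a genotype was widest for Bpifb5, Bpifb9a and Bpifb9b in the mutants, where the highest library stood at 1.71, 2.06 and 1.98 times the lowest. Within the controls it stood at 1.40, 1.85 and 1.66 times, while the ratio of mutant to control means was 1.03, 1.57 and 1.20. For the other 4 genes, too, the controls spread more widely than the means differed: the control ratio of highest to lowest was 1.20 for Bpifa1, 1.47 for Bpifb1, 1.36 for Muc5b and 1.25 for Scgb1c1, and the ratio of mutant to control means 1.11, 1.28, 1.17 and 0.904. Bpifa1 and Scgb1c1 varied little within the mutants, by 1.11 and 1.05 times. Bpifb3, a further gene of the cluster, had its highest values in the same libraries, at 3.34 FPKM in control replicate 2 and 4.11 FPKM in mutant replicate 2, against 1.49 to 2.40 FPKM in the other 4.

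**Figure D2:**
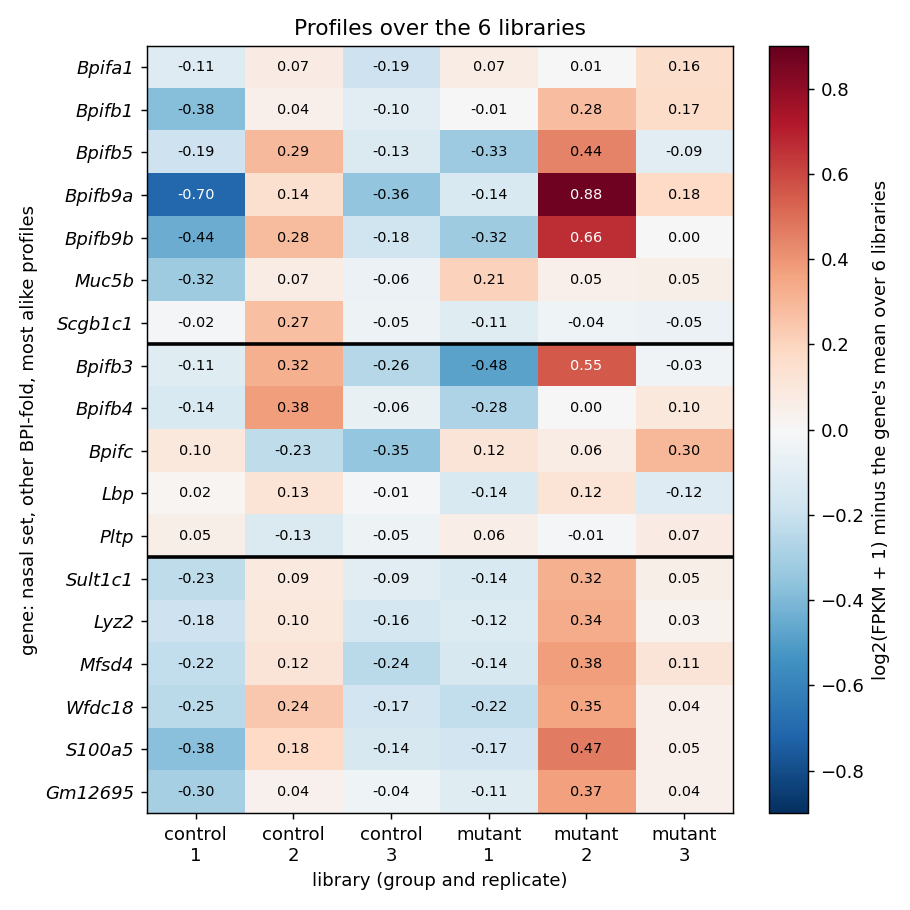
Log2(FPKM + 1) of each gene minus its mean over the 6 libraries (colour and printed value), by library, for the 7 expressed genes, 5 other expressed BPI-fold genes and the 6 genes whose profile was most like the mean of the 7. Bpifb5, Bpifb9a, Bpifb9b and Bpifb3 are highest in mutant replicate 2, while Bpifa1, Muc5b and Scgb1c1 are near their means there.

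The mean profile of the 7 genes, relative to its average, was -0.31, 0.17 and -0.15 over the controls and -0.090, 0.32 and 0.059 over the mutants on the log2 scale, in the order of replicate numbers. Among 3537 other genes that averaged 5 FPKM or more and had at least 0.5 times its range, the 6 with the smallest root mean square difference from it over the 6 libraries were Sult1c1 (0.054), Lyz2 (0.062), Mfsd4 (0.068), Wfdc18 (0.069), S100a5 (0.073) and Gm12695 (0.073). Wfdc18, a small secreted protein gene with a protease inhibitor fold, measured 155, 218 and 163 FPKM in control and 158, 235 and 189 FPKM in mutant, which repeats the order of Bpifb9b within each group. Lyz2, a lysozyme gene of macrophages and some epithelia, measured 52.1, 63.5 and 53.0 FPKM in control and 54.3, 75.1 and 60.5 FPKM in mutant. The mean joins unlike profiles. In mutant replicate 2, Bpifb9a, Bpifb9b, Bpifb5 and Bpifb1 stood at 0.88, 0.66, 0.44 and 0.28. Bpifa1, Muc5b and Scgb1c1 stood at 0.006, 0.049 and -0.041 there. Likeness over 6 libraries that share the same dissections is a description of these samples.

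Mutant replicate 2 also stood apart in other tissues of the dissection. The mean log2 level of 9 skeletal muscle genes was 1.46 above the control mean there, against 0.60 and 0.27 in the other mutants and -0.26 to 0.29 in the controls. The 15 general epithelium genes, by contrast, were lowest there, at -0.12 against -0.051 to 0.10 in the other 5 libraries. The share of gland tissue in each dissection was not measured, and its part in the library differences was not tested. In whole tissue, fewer cells of a type and less RNA per cell cannot be told apart.

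The levels of the Bpifb9 pair overlapped between the groups, while the division of the pair between its copies did not. The sum of both copies measured 156, 262 and 189 FPKM in control and 177, 352 and 222 FPKM in mutant, which overlap. Bpifb9a made up 10.3%, 11.3% and 10.9% of that sum in the controls and 13.7%, 14.2% and 13.7% in the mutants. Every mutant lay above every control, and the gap between the groups was wider than the range within either. The means were 10.8% ± 0.532 and 13.9% ± 0.275 (SD, n = 3 each), a difference of 3.01 percentage points. An exact two-sided permutation test gave p = 0.1, the smallest it can give for 3 against 3. Leaving out each library in turn kept the difference between 2.72 and 3.25 percentage points. This share was chosen after its values were seen. Of the 21 ratios between 2 of the 7 genes, 7 did not overlap between the groups, where 18.1% of all ratios between 2 tested genes above 0 in every library did not. The 7 ratios share genes: 3 hold Bpifb9a and 4 hold Scgb1c1, with the ratio of Bpifb9a to Scgb1c1 counted under both, and the remaining one was Bpifb5 to Bpifb9b, at 0.507 in control and 0.437 in mutant. Since the copies differ at so few coding positions, the share also depends on how reads were assigned, and whether it reflects transcript levels was not tested. With the Wnt1-Cre line and the strain unnamed, a difference in sequence between the groups in this region of chromosome 2 and a difference in transcript level cannot be told apart. Genes beside the cluster are described below, and whether their levels bear on the share was not tested.

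**Figure D3:**
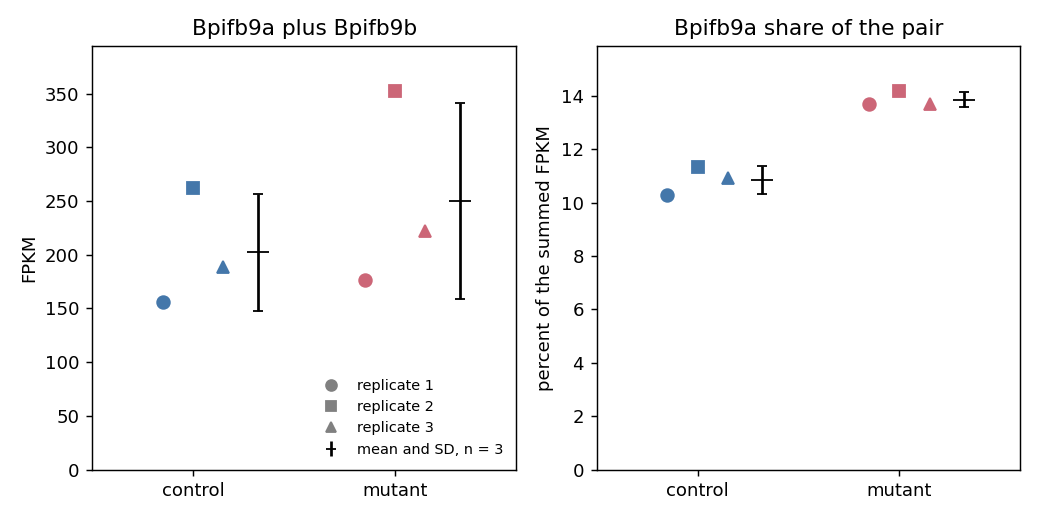
Summed FPKM of Bpifb9a and Bpifb9b (left) and the percentage of that sum listed for Bpifb9a (right) in the 3 control and 3 mutant libraries, with the mean and SD of each group. The sums overlap, while the shares are 10.3% to 11.3% in control and 13.7% to 14.2% in mutant.

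By Xist and the Y-linked gene Ddx3y, all 3 control libraries and mutant replicate 1 were female. Mutant replicates 2 and 3 were male, so sex and genotype are partly confounded. The Bpifb9a share was 13.7% in the female mutant and 14.2% and 13.7% in the male mutants. Whether sex bears on the share was not tested. With sex as a covariate none of the 7 genes was called, and the log2 changes of Bpifb5 and Bpifb9b were -0.32 and -0.21. That fit compares 1 female mutant with 3 female controls.

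The cluster on chromosome 2, from Bpifb2 to Bpifb9b (153875045 to 154320646, 445.6 kb, GRCm38), holds 13 BPI-fold genes, all in the files. Of these 7 were tested, and 5 of the 7 are members of the set described above. In the cluster 0 genes were called or separated between the groups, where 0.264% of all tested genes were called and 17% separated. A list of 12 BPI-fold and related lipid transfer genes outside the set overlaps this cluster. Of these 12, 5 were tested, among them Bpifb3 and Bpifb4 of the cluster. Changes were positive for 3 and negative for 2, and 0 were called. Pltp, which encodes the phospholipid transfer protein of plasma, stood at 62.3 ± 3.94 FPKM in control against 66.0 ± 2.02 FPKM in mutant. Lbp, which encodes the lipopolysaccharide-binding protein, measured 13.5 ± 0.738 and 12.7 ± 1.40 FPKM, and Bpifb4 5.35 ± 1.28 and 4.81 ± 0.757 FPKM (SD, n = 3 each). Bpifa2, a salivary gland gene of the cluster, did not exceed 0.339 FPKM, and Bpifa6 was listed at 0.

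**Figure D4:**
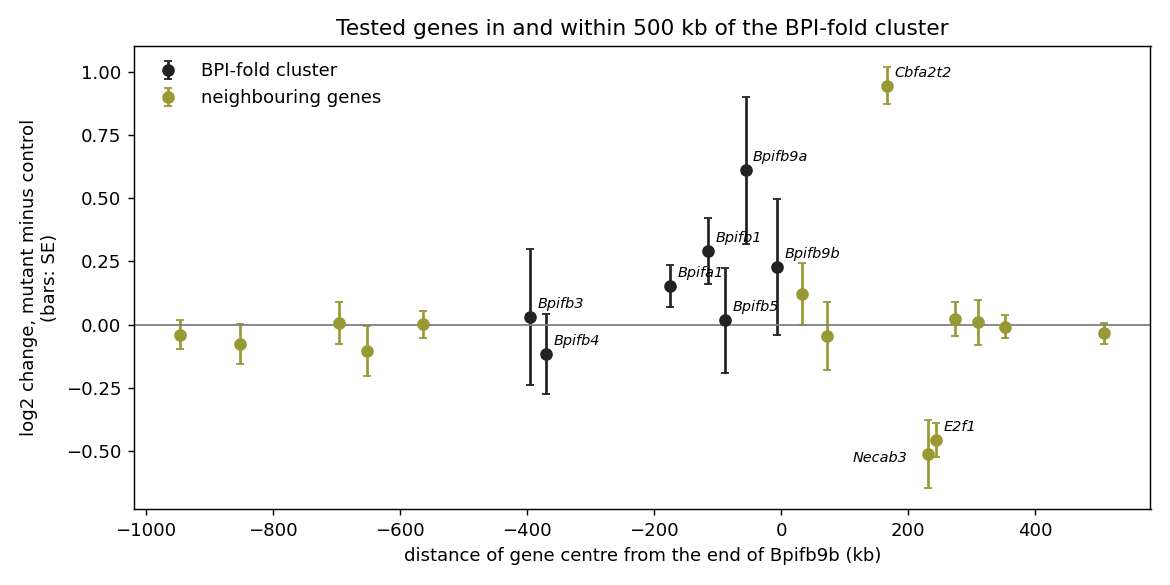
Log2 change (mutant minus control, bars SE) of tested genes in the BPI-fold cluster and within 500 kb of it, against the distance of the gene's centre from the end of Bpifb9b in kb. Cbfa2t2 lies at 0.95, E2f1 and Necab3 lie at -0.46 and -0.51, and the genes of the cluster lie between -0.12 (Bpifb4) and 0.61 (Bpifb9a).

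Genes next to the cluster were read because Bpifb9a and Bpifb9b lie at its end. Within 500 kb on either side 14 genes were tested, and 1 was called, where 0.264% of all tested genes were. This was Cbfa2t2, a corepressor gene that begins 115.8 kb past the end of Bpifb9b. Its level was 10.6 ± 0.587 FPKM in control against 21.3 ± 1.70 FPKM in mutant (SD, n = 3 each), with a limma adjusted p of 0.00633. E2f1, a cell cycle transcription factor gene on the minus strand whose nearer end lies 238.8 kb past the cluster, and Necab3 beside it had lower values in every mutant than in any control, with limma adjusted p of 0.0659 and 0.260. Raly, an RNA-binding protein gene, was also lower in every mutant, by little (129.9 FPKM in control and 126.8 FPKM in mutant). With Cbfa2t2, 4 of the 14 were thus separated, where 17% of all tested genes were. Cdk5rap1, which lies between the cluster and Cbfa2t2, stood at a difference of 0.12 on the log2 scale (adjusted p in limma, 0.776). These neighbours were chosen after values were seen.

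Other secreted products of nasal and related glands were also measured. Of 12 listed lipocalin symbols 7 were found, and Lcn13 is an older name of Obp2a. Of the found ones 3 were tested, all with positive changes, and 0 were called. Lcn3, a lipocalin gene known from vomeronasal glands, measured 2.24, 4.17 and 3.02 FPKM in control and 4.68, 5.62 and 5.78 FPKM in mutant. Every mutant lay above every control, where 17% of all tested genes were separated in either direction. With a log2 change of 0.64 ± 0.17 (SE) the limma adjusted p of Lcn3 was 0.265. Lcn11, another lipocalin gene, spread widely, at 3.53, 14.4 and 3.25 FPKM in control and 8.0, 14.2 and 9.78 FPKM in mutant, with its highest values in the second library of each group as for Bpifb5. Lcn2, a siderophore-binding lipocalin of host defence, measured 22.5 ± 1.40 and 24.3 ± 3.95 FPKM.

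**Figure D5:**
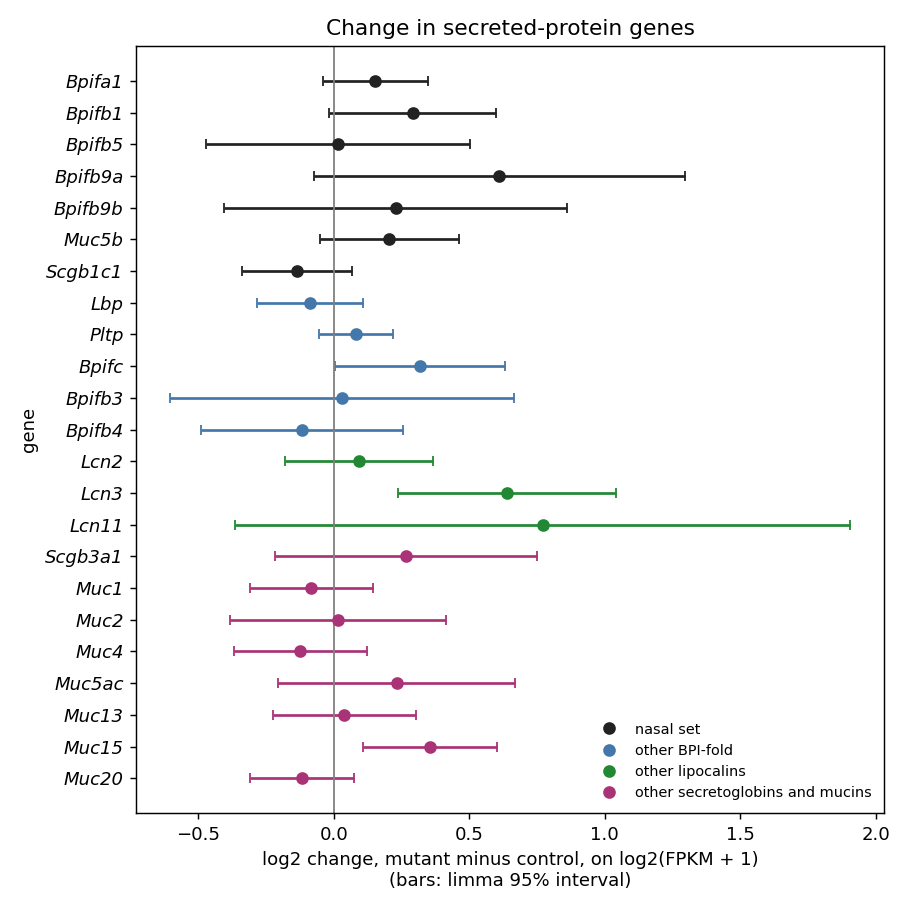
Log2 change (mutant minus control, on log2(FPKM + 1)) with its limma 95% interval for the 7 expressed genes of the set and the tested members of the other BPI-fold, lipocalin, secretoglobin and mucin genes. The intervals of Bpifc, Lcn3 and Muc15 lie above 0, and none of the genes shown passed adjustment over all tested genes.

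Among 13 other secretoglobin and mucin symbols 8 genes were tested, 5 with positive and 3 with negative changes, and 0 were called. In 1 of the 8, the mucin gene Muc15, every mutant lay above every control, where 17% of all tested genes were separated. Scgb3a1, a secretoglobin gene of airway secretory cells, stood at 5.78 ± 1.73 FPKM in control against 7.08 ± 1.45 FPKM in mutant, while Scgb1a1, the club cell secretoglobin gene, did not exceed 0.824 FPKM. The membrane mucin gene Muc1 measured 18.2 ± 1.86 and 17.1 ± 1.74 FPKM, and the gel-forming mucin gene Muc2 8.94 ± 2.36 and 8.90 ± 1.02 FPKM (SD, n = 3 each). Of 20 airway gland and host defence genes 13 were tested, 10 with positive and 3 with negative changes, and 0 were called. The 3 highest were Reg3g, an antimicrobial lectin gene (406 ± 46.8 and 455 ± 35.6 FPKM), Wfdc18 (179 ± 34.4 and 194 ± 38.9 FPKM) and Wfdc2 (137 ± 9.58 and 128 ± 18.4 FPKM). Aqp5, a water channel gene known from serous gland cells, ranged from 19.9 to 27.1 FPKM over the 6 libraries. The genes of this list that were not tested averaged under 1 FPKM, and Tff3 among them was listed at 0. Which cells gave the Aqp5 signal was not tested.

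Of 20 regulators of gland formation 17 were tested, 8 with positive and 9 with negative changes, and 0 were called. Creb3l1 and Xbp1, transcription factor genes of the secretory pathway, measured 62.3 ± 7.23 and 83.8 ± 7.0 FPKM in control and 54.6 ± 2.21 and 79.1 ± 3.98 FPKM in mutant, and Elf3, an epithelial ETS factor gene, 56.5 ± 3.08 and 59.3 ± 6.78 FPKM. In 1 of the 17 the groups did not overlap, where 17% of all tested genes were separated. This was Barx2, a homeobox gene of gland and other epithelia, with a log2 change of 0.65. Its limma adjusted p was 0.289 (unadjusted 0.00966), and it was chosen after its values were seen.

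Marker lists of the other tissues in the dissection were read in the same fit. The summed FPKM of 15 general epithelium genes ran from 902 to 965 in control and from 819 to 999 in mutant, with log2 changes of 0.0043 for Krt8, -0.052 for Krt18 and 0.058 for Krt19. The 9 ciliated epithelium genes found summed to 644 to 682 in control and 623 to 715 in mutant, with changes of 0.00072 for Foxj1, 0.064 for Tppp3 and -0.071 for Rsph1. The 7 sustentacular enzyme genes of the olfactory lining summed to 1266 to 1442 and 1349 to 1515, with changes of 0.093 for Cbr2, 0.067 for Cyp2f2 and -0.055 for Ugt2a1. In these 3 lists 0 genes were called, and the separated ones were Cldn7, lower in mutant, and Cyp2f2, higher. All 12 skin and oral epithelium genes had positive changes and 10 were separated, where 17% of all tested genes were, with Krt1, Krt10 and Krt5 at 1.25, 0.90 and 0.77, but 0 were called. Their summed FPKM was 816 to 1830 in control and 2057 to 2420 in mutant. All 9 muscle genes had positive changes, with 4 separated and 0 called, and summed to 236 to 389 and 348 to 896 FPKM (Acta1 0.68, Myh3 0.98 and Ckm 0.50). Whether the higher skin and muscle signal bears on the secretory genes was not tested. Salivary acinar markers differed in level: Prol1 and Cst10 were listed at 0, and Smgc did not exceed 0.227 FPKM. The highest was Dcpp3, with means of 12.4 FPKM in control and 16.2 FPKM in mutant. Amy1 had means of 3.09 and 3.82 FPKM, and Dcpp1 1.95 and 1.95 FPKM. Their changes were 0.40, 0.23 and -0.0037, in that order, and 0 of 4 tested genes were called or separated. The leukocyte genes (S100a9 0.44, S100a8 0.39 and Lyz2 0.16) and the endothelial genes (Tie1 0.17, Pecam1 0.074 and Cdh5 0.032) had positive changes in 6 of 6 and 5 of 5 tested members, with 2 separated in each list and 0 called.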

How the data were processed

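Total RNA was extracted with TRIzol and stranded messenger RNA libraries were made, per the labels' protocols, for 3 control and 3 mutant samples grouped by the genotype label. The submitters' processing notes name TopHat2 2.1.1, Bowtie2 2.2.8, SAMtools 0.1.18, Cuffdiff 2.2.1 and genome build mm10. The annotation, strand setting and treatment of multiply mapped reads are not recorded in the sources used here. Values deposited by the authors are FPKM, 1 per gene symbol and library, per the file headers. FPKM totals ran from 514693 to 546322, 14620 to 14787 genes reached 1 FPKM, and read depth is unknown.

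FPKM values are not counts, so log2(FPKM + 1) was tested with limma 3.58.1 in R 4.3.3 (eBayes with trend, two-sided, no covariate) for the 14766 genes averaging 1 FPKM or more, adjusted by Benjamini-Hochberg over all of them at 0.05. The fit was tested on simulated data with planted changes of 1 or 2 log2 units. These are greater than the change of any member, so the simulation does not show what the fit would find at the members' sizes. A pseudocount of 1 understates changes of low genes such as Bpifb1. The members and gene lists were chosen with earlier results of these data known. Named genes are the 9 members, every called gene of a list and up to its 3 highest by mean FPKM, and the 6 most alike profiles; others were picked with their values known, or to show a level or a gene at 0. Bpifb3, Bpifa2, Bpifc, Muc15 and Scgb1a1 belong to the latter. Alternatives were 2 pseudocounts, 2 filters, 2 scalings, no trend, library weights, 2 covariates and leaving out each library. The Bpifb9a share was added after seeing the data. Positions and transcripts are from GENCODE (GRCm38, the coordinates of mm10) and start regions from RefSeq (GRCm38.p6). Sequences were aligned with Biopython 1.88 and permutation used SciPy 1.17.1.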

Additional observations from a re-analysis of the deposited data

How the results depend on the processing

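None of the 7 tested genes was called in any of the 16 alternatives, with limma adjusted p from 0.363 to 0.999; a mean of at least 5 FPKM left out Bpifb1, and Obp1a and Obp2a could be tested in none. Bpifa1, Bpifb1, Bpifb9a and Muc5b kept a positive and Scgb1c1 a negative change in every alternative that tested them; Bpifb9a ranged from 0.17 with sex as a covariate to 0.84. Leaving out 1 library moved each of the 7 changes by over 1.5 times: Bpifb9a fell to 0.33 without mutant replicate 2, Bpifb9b fell to 0.065, Muc5b to 0.098 and Bpifb1 to 0.17 without control replicate 1, Scgb1c1 moved to -0.036 without control replicate 2, Bpifa1 fell to 0.097 without control replicate 3, and Bpifb5 changed sign. Bpifb1 was 0.14 and Muc5b 0.31 with sex as a covariate. Bpifb5 reached up to 0.18 without mutant replicate 1 and turned negative with library weights (-0.097), with sex as a covariate (-0.32) and without control replicate 1 (-0.073), control replicate 3 (-0.045) or mutant replicate 2 (-0.20). Bpifb9b reached up to 0.45 without mutant replicate 1 and turned negative with sex as a covariate (-0.21) and without mutant replicate 2 (-0.044). Both changes lie well within their intervals, and the cause was not tested. The number of genes called among all tested was 39. It was 18 with no filter, 19 without trend, 71 with library weights, 10 with sex as a covariate, 159 with the general epithelium level as a covariate, and 17 to 44 when 1 library was left out. No paired analysis was possible because the labels carry no replicate numbers shared between the groups. Unknown depth limits what can be said of Bpifb1 and of genes listed at 0.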
